A study of Mus musculus with 3 samples.

Results

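The signaling lymphocytic activation molecule (SLAM) family is a set of immunoglobulin-superfamily receptors on blood cells. The 8 members described here, Ly9, Slamf7, Cd48, Slamf1, Cd84, Slamf6, Slamf9 and Slamf8, were taken by gene symbol from the 32285 genes of the spleen count matrices. Most SLAM receptors bind a copy of themselves on a neighbouring cell, whereas CD48 is the ligand of the natural killer (NK) cell receptor CD244. The cytoplasmic tails of several members recruit the adaptors SAP, encoded by Sh2d1a, and EAT-2, encoded by Sh2d1b1, which set whether contact between lymphocytes activates or restrains them. In lupus-prone mice the SLAM gene cluster on chromosome 1 lies in Sle1b, an interval known for loss of B cell tolerance.

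Splenocytes of mice aged 12 to 14 weeks were profiled by 5′ single-cell RNA sequencing after T cells had been depleted with CD3 microbeads. Each condition was a pool of 3 mice, and each of the 3 libraries held 2 conditions, whose cells carried hashtag antibodies C0301 to C0306. In the control library, male C57BL/6 sham mice, which received a minipump for 2 weeks from 10 weeks of age, were pooled with female C57BL/6 mice. Angiotensin II, a hypertensive peptide, was delivered by the same kind of pump to the male C57BL/6 mice of the Ang II library. Its dose was recorded as 490 ug/kg/min, a unit that could not be checked here. These mice also received placebo or 2-HOBA, a scavenger of isolevuglandins. The B6.SLE123 library held lupus-prone congenic mice, female in the study, given 2-HOBA or placebo for 6 weeks from 7 weeks of age. The labels tie no hashtag to a condition, so the 6 hashtag populations of a library are given by their spread and the 2 conditions within it are not compared. B6.SLE123 mice carry the Sle1 interval, and with it the SLAM cluster, from another strain, while reads were aligned to the mouse reference. The boundaries of the interval were not used here, and the part of allelic differences in read alignment was not tested.

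The libraries held 16062 to 20691 barcodes with a median of 1852 unique molecular identifiers (UMIs, counted RNA molecules) in control, 2842 in Ang II and 2082 in B6.SLE123. Barcodes with several hashtags were 11.3% to 17.9% of those within the RNA limits and were removed, which left 14030 to 16733 cells. Between 96.1% and 97.9% of these were placed in a class by marker genes, none of them a SLAM gene. All 7 B cell markers were found in the B cell gate of each library (8223 to 9322 CPM in sum). The same markers define that gate, so their presence in it is no check of it. Levels are given as CPM, the UMIs of a gene per 1000000 UMIs summed over the cells of a class, so members are compared between libraries and classes and not with each other. With 1 library per group there is no spread between samples and no test. The 95% intervals given are exact and cover counting error only. Pairs of libraries shared 415 to 496 barcode sequences. Hashtag population C0303 of B6.SLE123 stood apart, with 304 of 741 neutrophils, 136 of 216 C1q-expressing cells and 95 of 222 atypical B cells, and C0303 of Ang II held 277 of that library's 288 residual T cells. Values without C0303 are given beside the results that rest on it.

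On mouse build GRCm38, with gene spans from GENCODE, 6 members formed a cluster of 364.547 kb on chromosome 1. From the lowest position upwards these were Ly9 (ENSMUSG00000004707, chr1:171588624-171607410, minus strand), Slamf7 (ENSMUSG00000038179, chr1:171632403-171653035, minus), Cd48 (ENSMUSG00000015355, chr1:171682009-171705258, plus), Slamf1 (ENSMUSG00000015316, chr1:171767127-171801184, plus), Cd84 (ENSMUSG00000038147, chr1:171839697-171890718, plus) and Slamf6 (ENSMUSG00000015314, chr1:171917515-171953170, plus). Slamf9 (ENSMUSG00000026548, chr1:172475358-172478575, plus) and Slamf8 (ENSMUSG00000053318, chr1:172581758-172590568, minus) lay 522.188 kb beyond the cluster. Ly9 overlapped Cd244a, the gene of the CD48 receptor, on the opposite strand, so its UMIs are uncertain where reads were not assigned by strand.

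RefSeq start sites gave upstream sequence for 7 of the 8 members. The 4 shown are the 200 bases before the start of Slamf6, which was higher than control in B6.SLE123 B cells, and of Slamf7, Cd84 and Cd48, which were lower in B cells or myeloid cells, because the main comparisons turn on these 4 neighbours in the cluster. Slamf6 (chr1:171917262-171917461, plus strand), Slamf7 (chr1:171649000-171649199, minus strand, inside the longer span of the gene annotation), Cd84 (chr1:171839497-171839696, plus strand) and Cd48 (chr1:171681792-171681991, plus strand) are written 5′ to 3′ from RefSeq on GRCm38.p6, with motif matches in capitals.
Slamf6: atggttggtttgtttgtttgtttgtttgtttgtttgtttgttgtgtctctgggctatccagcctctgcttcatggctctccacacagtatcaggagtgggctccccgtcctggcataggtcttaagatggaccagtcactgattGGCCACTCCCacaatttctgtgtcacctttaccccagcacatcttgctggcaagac
Slamf7: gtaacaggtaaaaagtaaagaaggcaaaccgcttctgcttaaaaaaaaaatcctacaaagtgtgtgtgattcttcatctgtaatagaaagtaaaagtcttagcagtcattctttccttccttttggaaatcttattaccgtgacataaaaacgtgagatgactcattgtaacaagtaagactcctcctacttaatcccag
Cd84: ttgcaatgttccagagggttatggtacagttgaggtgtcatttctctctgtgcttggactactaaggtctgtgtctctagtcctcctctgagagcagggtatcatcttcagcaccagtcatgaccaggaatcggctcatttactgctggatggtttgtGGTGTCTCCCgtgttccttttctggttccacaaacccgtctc
Cd48: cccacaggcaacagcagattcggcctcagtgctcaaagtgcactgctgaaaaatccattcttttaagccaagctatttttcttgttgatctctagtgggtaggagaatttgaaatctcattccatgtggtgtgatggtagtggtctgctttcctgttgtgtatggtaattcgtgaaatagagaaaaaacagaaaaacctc
Both strands were searched for 6 short motifs, namely NF-kB (GGGA, any 4 bases, then CC), the PU.1 core GAGGAA, the ETS core CCGGAA, the interferon-stimulated response element (GAAA, any 2 bases, then GAAA), the TATA box TATAAA and the E-box CAGCTG. The PU.1 and ETS cores share the letters GGAA. The capitals in Slamf6 and in Cd84 mark an NF-kB match on the opposite strand, which 15% of 32544 RefSeq upstream windows of the same length also held. The ETS core (10.8% of windows) and the TATA box (9.89%) matched no member. Nor did any of the 6 motifs occur in the windows of Slamf7, Cd48 or Slamf1. The Slamf8 window held the interferon-stimulated response element (2.27% of windows) and the E-box (10.9%), and the Slamf9 window held the PU.1 core (19.1%) and the E-box. A match is a description of letters and not of a bound site.

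In B cells, which made up 79.2% to 85.7% of the kept cells, the members of the cluster did not move together in B6.SLE123. Slamf6, a receptor that recruits SAP and EAT-2, was higher than in control, whereas Cd48 and Slamf7 were lower. Slamf6 stood at 116 CPM (106 to 120.1, median 118) in control B cells, where the parenthesis gives the range and median of the 6 hashtag populations, at 107 CPM (97.5 to 114, median 109) in Ang II and at 152 CPM (132 to 169, median 152) in B6.SLE123. All 6 hashtag populations of B6.SLE123 were above all 6 of control, which was so for 9.52% of the 11498 genes compared. The Slamf6 level in B6.SLE123 was 1.31-fold that in control, with a log2 ratio of 0.39 (0.33 to 0.46) and its 95% interval in parentheses.

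Cd48, the membrane-anchored ligand of CD244, was measured at 159 CPM (147 to 179, median 153) in control B cells, 156 CPM (145 to 167, median 155) in Ang II and 126 CPM (117 to 142, median 124) in B6.SLE123. The B6.SLE123 populations lay below every control population, with a log2 ratio of -0.33 (-0.40 to -0.27). Slamf7, also called CRACC, a receptor of NK cells and plasma cells, was measured at 42.4 CPM (37.7 to 49.1, median 42.4) in control B cells, 37.7 CPM (33.7 to 43.4, median 36.0) in Ang II and 29.2 CPM (19.1 to 34.8, median 30.3) in B6.SLE123. Again all B6.SLE123 populations were below all control populations, a pattern that 10.7% of genes showed. The log2 ratio of Slamf7 was -0.54 (-0.66 to -0.41). Thinned to 1000 UMIs per cell, the log2 ratio was 0.62 for Slamf6, -0.37 for Cd48 and -0.81 for Slamf7.

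Ly9, a receptor of B and T cells, was at 90.7 CPM (75.2 to 98.0, median 92.8) in control B cells, 97.1 CPM (94.4 to 102, median 97.0) in Ang II and 73.7 CPM (69.3 to 79.8, median 73.1) in B6.SLE123. The B6.SLE123 and control ranges met only at 1 control population, C0302, and the log2 ratio was -0.30 (-0.38 to -0.22). Cd84, a self-binding receptor of lymphoid and myeloid cells, was at 99.8 CPM (93.5 to 103, median 100.3) in control, 99.3 CPM (89.3 to 109.9, median 101) in Ang II and 85.0 CPM (74.2 to 99.7, median 81.6) in B6.SLE123. Its populations overlapped, and the log2 ratio of -0.23 (-0.31 to -0.15) came to -0.09 when each cell was thinned to 1000 UMIs.

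Slamf1, the founding receptor of the family, was at 22.7 CPM (19.5 to 28.8, median 22.3) in control B cells, 26.4 CPM (17.9 to 34.2, median 27.0) in Ang II and 30.4 CPM (19.1 to 55.1, median 27.3) in B6.SLE123. The B6.SLE123 value rested largely on C0303, at 55.1 CPM against 19.1 to 32.8 CPM in the other populations. The log2 ratio to control was 0.42 with C0303 and 0.15 without it, and 0.07 with C0303 when thinned. Slamf9 was near 3 CPM in all libraries (3.55 CPM in control, 3.46 CPM in Ang II and 3.24 CPM in B6.SLE123), and Slamf8 gave 8 to 15 UMIs per library in B cells.

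Of the 7 members with at least 50 UMIs over the B6.SLE123 and control B cells, 0 differed 2-fold, against 7.32% of all genes. The median log2 ratio of the 7 members was -0.23 and that of all genes -0.04. Markers of other cells moved with the libraries inside the B cell gate. The 8 neutrophil markers, all detected in each library, summed to 207 CPM in control (40.7 to 509 over hashtag populations), 627 CPM in Ang II (237 to 1718) and 783 CPM in B6.SLE123 (143 to 2113), and the 7 plasma cell markers to 215, 247 and 542 CPM in the same order. In B cells without a UMI of S100a8, S100a9 or Jchain the difference was larger for Slamf6 (log2 ratio 0.49) and for Slamf7 (-1.04), the 1 member then past 2-fold. With control cells limited to those with an Xist UMI, which marks female cells, Cd48 stood at -0.26 and Slamf7 at -0.68.

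**Figure D1:**
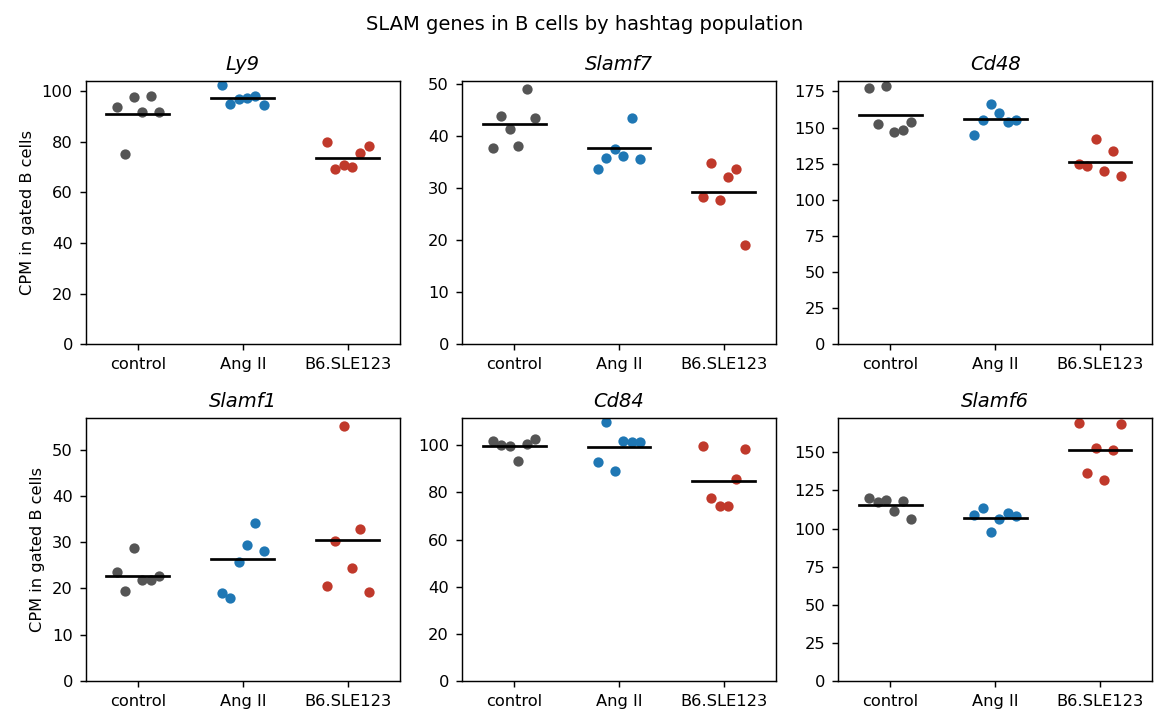
CPM of the 6 cluster members in gated B cells. Each point is 1 hashtag population of 1 library, and the bar is the value of the whole library. Slamf6 populations of B6.SLE123 (132 to 169 CPM) sit above those of control (106 to 120.1 CPM), while Cd48 and Slamf7 populations of B6.SLE123 sit below all control populations.

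The share of B cells with a UMI gave the same order of control and B6.SLE123 for Slamf6, Cd48 and Slamf7. At an equal depth of 1000 UMIs per cell, for which 12436 control, 11028 Ang II and 11886 B6.SLE123 B cells were deep enough, Slamf6 was detected in 10.7%, 10.1% and 15.7% of cells (20.6%, 26.3% and 28.8% before thinning). Slamf6 was low in neutrophils, where the thinned share was 0% of 419 control cells, which allows up to 0.716%. The neutrophil share was 0.149% of 671 Ang II cells and 0.211% of 474 B6.SLE123 cells. Over all gated cells, with no depth minimum, median depths were 1157, 2041 and 1535 UMIs in neutrophils and 1765, 2734 and 1913 UMIs in B cells. Cd48 was detected after thinning in 14.9%, 14.6% and 11.7% of B cells (26.9%, 36.5% and 24.6% before). Slamf7 was detected after thinning in 3.69%, 3.14% and 2.15% of B cells (7.51%, 9.67% and 5.57% before), above the 0.716%, 0.298% and 0.211% of thinned neutrophils.

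Among B cell subsets, Slamf6 was furthest above control in follicular B cells, the recirculating subset of the spleen. Follicular cells held 124 CPM (116 to 131, median 123) of Slamf6 in control, 113 CPM (104 to 124, median 112) in Ang II and 216 CPM (189 to 236, median 219.5) in B6.SLE123. The lowest B6.SLE123 population was above the highest of either other library, and the level was 1.75-fold control (log2 ratio 0.80, 0.71 to 0.90). In this gate 3.17% of genes had all B6.SLE123 populations above all control populations. The share of follicular cells with a Slamf6 UMI was 35.2% in B6.SLE123 and 21.3% in control, and 19.99% and 11.3% at equal depth.

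In marginal zone B cells, the blood-facing innate-like subset, Slamf6 was 111 CPM (102 to 128, median 111) in B6.SLE123 and 97.7 CPM (80.0 to 110.0, median 98.7) in control. These ranges overlapped, with a log2 ratio of 0.18 (0.01 to 0.35). Whether the ratio differed between the follicular and marginal zone gates was not tested. In B cells without a subset call, 6630 in B6.SLE123 and 5496 in control, Slamf6 was 153 CPM (137 to 170.0, median 146) against 114 CPM (107 to 127, median 113). All B6.SLE123 populations were again above all control populations (4.22% of genes), and the log2 ratio was 0.42 (0.32 to 0.53).

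In germinal centre B cells, where antibodies are refined, Slamf6 stood on the other side of control. It was 66.7 CPM (41.3 to 92.3, median 68.9) in the 540 cells of B6.SLE123, 75.3 CPM in the 69 cells of Ang II and 129.6 CPM in the 54 cells of control. The log2 ratio of B6.SLE123 to control was -0.96 (-1.44 to -0.45), with 43 UMIs behind the control value and only 2 control hashtag populations of 10 or more cells.

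Slamf7 was lower in B6.SLE123 than in control in the follicular, marginal zone and germinal centre gates and in the uncalled cells. Follicular cells held 21.5 CPM (16.2 to 31.4, median 21.6) in B6.SLE123 and 38.9 CPM (31.0 to 50.2, median 37.7) in control, ranges that just overlapped (log2 ratio -0.86, -1.11 to -0.61). Marginal zone cells held 17.4 CPM (9.78 to 23.7, median 18.3) against 36.9 CPM (20.8 to 47.4, median 38.4), with overlapping ranges and a log2 ratio of -1.08 (-1.45 to -0.72). In this gate Slamf7 was the 1 member of 6 at least 2-fold lower, as were 1.05% of genes. Cells without a subset call held 21.6 CPM (12.0 to 28.5, median 22.4) against 42.6 CPM (34.9 to 50.3, median 43.5), a log2 ratio of -0.98 (-1.20 to -0.76). Here all B6.SLE123 populations were below all control populations, which was so for 7.02% of genes.

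Germinal centre B cells held more Slamf7 than the follicular, marginal zone or uncalled cells in all 3 libraries, at 214 CPM in control, 195 CPM in Ang II (145 to 226 in 3 populations) and 105 CPM (79.8 to 134, median 101) in B6.SLE123. Within B6.SLE123 the germinal centre populations were all above the follicular ones (16.2 to 31.4 CPM). The log2 ratio of germinal centre Slamf7 to control was -1.03 (-1.40 to -0.63), where 2.05% of genes were at least 2-fold lower. It was 0.33 when the RNA limits of the cell filter were read as UMIs instead of genes. That reading leaves out many of these cells, whose median depths were 5003 UMIs in B6.SLE123 and 5602.5 in control. Germinal centre cells gave 328 of the 938 Slamf7 UMIs of B6.SLE123 B cells and 71 of the 1195 of control B cells, so the summed B cell ratio also holds this difference in subset make-up.

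Cd84 and Slamf1 also split the B cell subsets. In B6.SLE123, Cd84 was 15.7 CPM (11.3 to 19.6, median 14.2) in germinal centre cells, 107 CPM (86.1 to 124, median 106) in follicular cells and 87.6 CPM (78.0 to 101, median 87.5) in marginal zone cells. The germinal centre populations lay below all of the others, and the library values had the same order in control (21.1, 102 and 98.3 CPM) and in Ang II (33.2, 105 and 91.7 CPM). In follicular cells the Cd84 log2 ratio of B6.SLE123 to control was 0.06 (-0.06 to 0.19). Slamf1 in B6.SLE123 was 60.2 CPM (43.1 to 96.6, median 55.4) in germinal centre cells, 30.9 CPM (16.3 to 60.6, median 24.8) in follicular cells and 12.6 CPM (4.95 to 36.2, median 10.4) in marginal zone cells. The germinal centre range lay above the marginal zone range and overlapped the follicular one. The follicular log2 ratio of Slamf1 to control was 0.23 with C0303 and -0.14 without it.

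Cd48 was on the lower side of control in the follicular and marginal zone gates and Ly9 in the follicular gate. In follicular cells the log2 ratio was -0.31 (-0.45 to -0.16) for Ly9, at 73.6 CPM in B6.SLE123 and 90.9 CPM in control. For Cd48 it was -0.25 (-0.36 to -0.15), at 137 and 163 CPM. In marginal zone cells Cd48 stood at 112 CPM (103 to 135, median 111) in B6.SLE123 and 155 CPM (125 to 163, median 160.3) in control, a log2 ratio of -0.46 (-0.61 to -0.31), and Ly9 at 86.3 and 92.3 CPM (-0.10, -0.28 to 0.09). The sign of the Ly9 ratio in marginal zone cells did not hold, at 0.21 after thinning. The hashtag ranges overlapped in each of these comparisons. Slamf9, a member without adaptor-binding tail motifs, rested in follicular cells on 13 UMIs in B6.SLE123 and 38 in control (1.53 and 3.08 CPM, log2 ratio -1.01, -2.05 to -0.07). It was the 1 member of 7 at least 2-fold lower, as were 1.37% of genes, and its ratio was -2.41 without C0303.

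**Figure D2:**
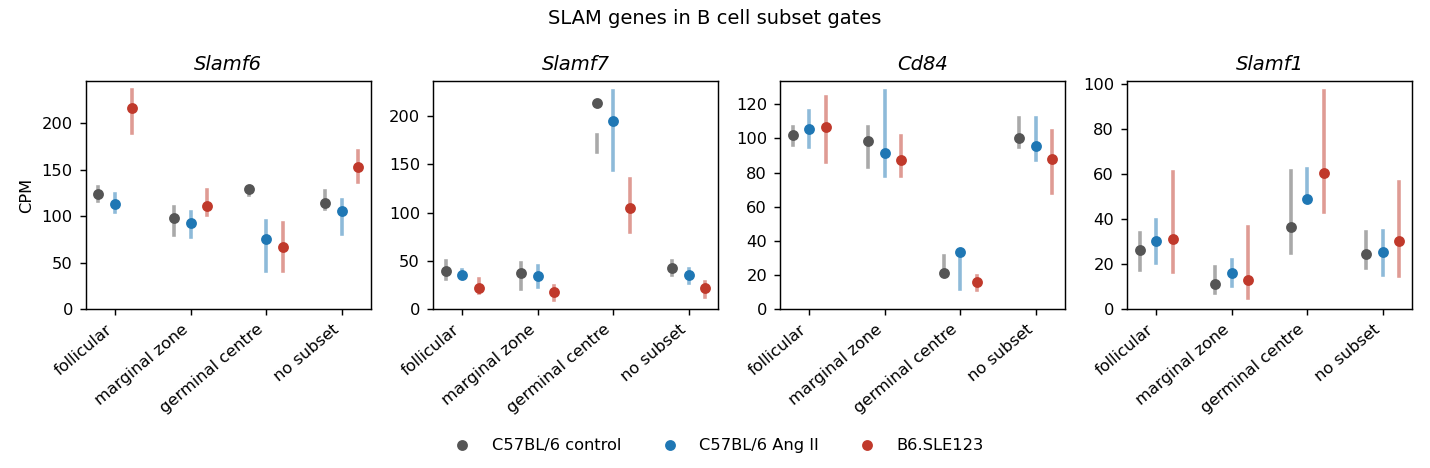
CPM of Slamf6, Slamf7, Cd84 and Slamf1 in B cell subset gates. Points are whole libraries and vertical lines run over the hashtag populations with at least 10 cells, of which the germinal centre gate had only 2 in control and 3 in Ang II. Slamf6 of follicular cells stands at 216 CPM in B6.SLE123, and germinal centre cells are higher in Slamf7 and lower in Cd84 than follicular cells in all 3 libraries.

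Among cell classes of at least 50 cells, Slamf6 and Slamf1 were highest in B cells in all libraries. Slamf6 in the other classes of at least 50 cells was at most 31.9 CPM, in plasma cells of B6.SLE123, except in the residual T cells of Ang II at 97.2 CPM, where the 1 hashtag population of 10 or more cells lay within the range of Ang II B cells. Slamf1 outside B cells was, in the same classes, at most 8.76 CPM, in those same T cells. In NK cells Slamf6 was 8.75 CPM in control (10 UMIs), 12.9 CPM in Ang II (15 UMIs) and 25.9 CPM in B6.SLE123 (28 UMIs), with overlapping hashtag ranges. B cell markers in the NK gate summed to 321, 250.2 and 480.4 CPM in the same order and plasma cell markers to 149, 222 and 2805 CPM, and their part in these Slamf6 values was not tested.

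Ly9 was highest in NK cells in each library, and Cd48 was highest there too, with the hashtag range of the next class overlapping. Cd48 was 381 CPM (293 to 444, median 383) in control NK cells, 364 CPM (331 to 417, median 370.3) in Ang II and 392.5 CPM (366 to 463, median 384) in B6.SLE123. These ranges overlapped, and the log2 ratio of B6.SLE123 to control was 0.04 (-0.15 to 0.24). Ly9 in NK cells was 133 CPM (98.8 to 168, median 133) in control, 146 CPM (117 to 169.5, median 140.1) in Ang II and 106 CPM (91.6 to 114, median 109) in B6.SLE123, with overlapping ranges and a log2 ratio of -0.32 (-0.68 to 0.04). Slamf7 was 191, 176 and 220.3 CPM (0.21, -0.06 to 0.48), and Cd84 was 136, 141 and 135 CPM (-0.01, -0.35 to 0.32). Against control NK cells with an Xist UMI, the ratio was -0.03 for Ly9 and 0.64 for Slamf7. Of the 4 members with enough UMIs in NK cells 0 differed 2-fold, against 2.14% of genes.

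Nonclassical monocytes, which patrol blood vessels, held 305, 302 and 304 CPM of Cd48 in control, Ang II and B6.SLE123. The log2 ratio of B6.SLE123 to control was -0.00 (-0.37 to 0.36), so the 1 member with enough UMIs did not reach 2-fold, in a class where 4.32% of genes did. Classical monocytes held 275, 281 and 245 CPM of Cd48. Neutrophils held 6.65, 6.88 and 15.2 CPM of Cd48 and at most 5.63 CPM of Ly9, Slamf6, Slamf7, Slamf1, Slamf8 or Slamf9 in any library.

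**Figure D3:**
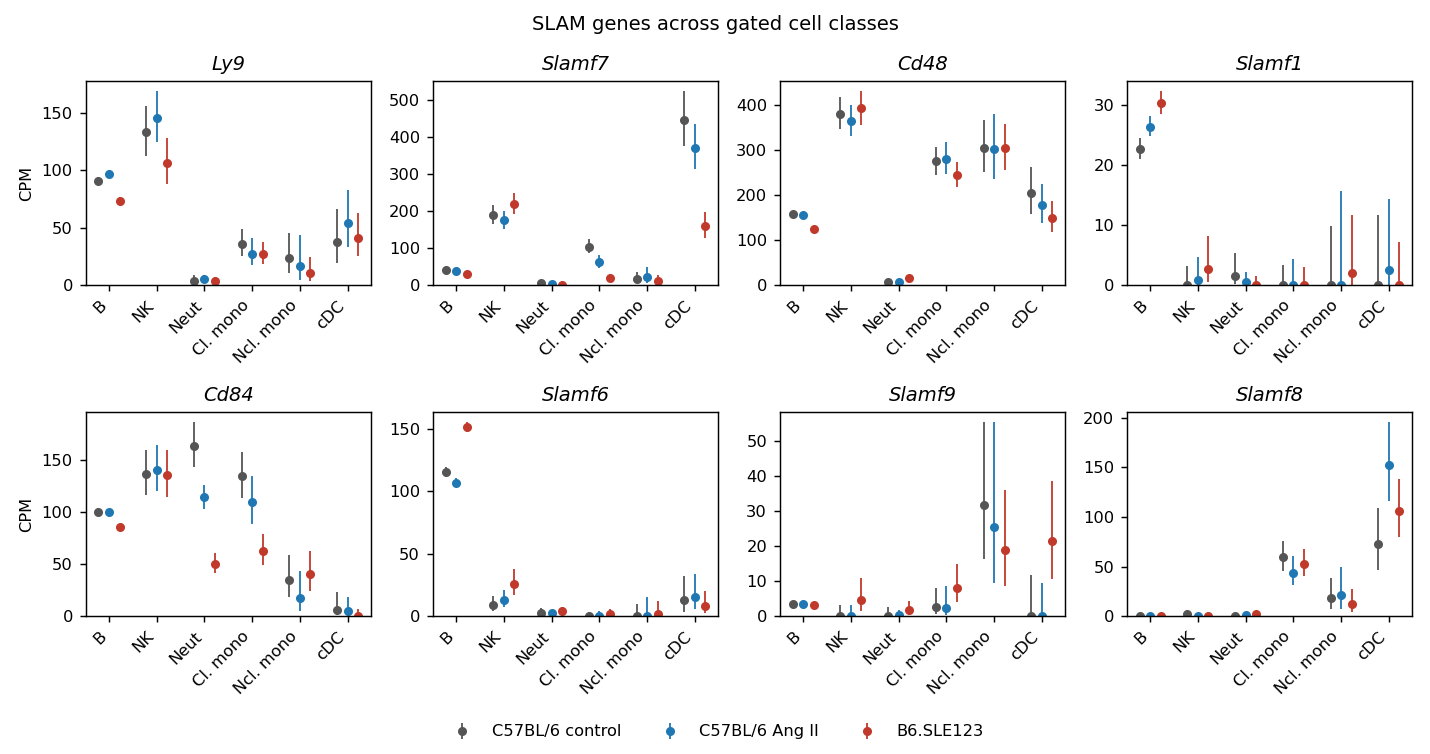
CPM of the 8 members by cell class for the 3 libraries, with exact 95% counting intervals. Among these 6 classes Slamf1 and Slamf6 are highest in B cells, Cd48 is at its highest in NK cells and lowest in neutrophils, and Slamf7 reaches 446 CPM in conventional dendritic cells (cDC) of control.

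Cd84 was the one member with a high level in neutrophils, and there it was lower in B6.SLE123. It was 163 CPM (110.0 to 282, median 195) in control neutrophils, 114 CPM (95.9 to 175, median 122) in Ang II and 50.2 CPM (35.4 to 111, median 63.8) in B6.SLE123. The ranges overlapped only at the highest B6.SLE123 population, C0306 at 111 CPM with 6 UMIs, and the lowest control population, C0302 at 110.0 CPM. The log2 ratio of B6.SLE123 to control was -1.70 (-2.04 to -1.37), from 119 and 221 UMIs, in a class where 5.25% of genes were at least 2-fold lower.

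The size of the Cd84 difference in neutrophils depended on which cells entered. Without C0303 of B6.SLE123 the log2 ratio was -1.24, and with control cells limited to those with an Xist UMI it was -0.45. Among neutrophils without a UMI of Camp or Ngp, genes of immature granules, it was -0.95. Camp and Ngp together stood at 57689 CPM in control, 76948 CPM in Ang II and 87123 CPM in B6.SLE123 neutrophils. At equal depth, a Cd84 UMI was found in 20.3% of control neutrophils, 16.7% of those in Ang II and 8.44% of those in B6.SLE123 (26.4%, 35.2% and 14.3% before thinning).

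In classical monocytes, the inflammatory blood monocytes, Cd84 and Slamf7 were lower in B6.SLE123. Cd84 was 134 CPM (111 to 208, median 125) in control, 109 CPM (24.8 to 163, median 139) in Ang II and 62.7 CPM (30.4 to 103, median 78.2) in B6.SLE123. The 6 B6.SLE123 populations were all below the 6 of control, which 0.925% of genes showed, and the log2 ratio was -1.10 (-1.52 to -0.69). Without C0303 of B6.SLE123 it was -0.81. Slamf7 was 105 CPM (20.9 to 312, median 123) in control, 61.8 CPM (20.3 to 106, median 59.8) in Ang II and 20.4 CPM (9.53 to 37.7, median 24.3) in B6.SLE123. Its B6.SLE123 and control ranges overlapped, with the lowest control population, C0304, at 20.9 CPM from 2 UMIs.

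The Slamf7 log2 ratio in classical monocytes was -2.36 (-3.05 to -1.73), from 25 and 116 UMIs, and -1.88 without C0303. These 2 members were at least 2-fold lower out of 5 with enough UMIs, against 1.15% of all genes. Thinned to 1000 UMIs per cell, the log2 ratio was -1.95 for Cd84 and -1.90 for Slamf7, on fewer than 50 UMIs each. The median log2 ratio of the 5 members was -0.42 and that of all genes 0.03. Neutrophil markers in this gate also differed between the libraries, at 179 CPM in control (5 of 8 detected), 307 CPM in Ang II (8 of 8) and 1141 CPM in B6.SLE123 (7 of 8, 132 to 2016 over populations), and their part was not tested. Ly9 (36.1 and 26.9 CPM), Cd48 and Slamf8 (59.5 and 52.9 CPM) in control and B6.SLE123 classical monocytes had intervals that included a ratio of 1.

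Among classes of at least 50 cells, Slamf7 was at its highest level in conventional dendritic cells of control and Ang II. In these antigen-presenting cells, joined here from the cDC1 and cDC2 gates, it was 446 CPM in the 76 control cells (449.6 to 580.5 in 3 populations), 371 CPM in the 66 Ang II cells (244 to 576 in 3) and 160.4 CPM in the 152 B6.SLE123 cells (105 to 178, median 165). The B6.SLE123 populations were below the 3 control populations of at least 10 cells. The share of all genes with this pattern was not formed, because the other control populations had under 10 cells. The log2 ratio of B6.SLE123 to control was -1.47 (-1.88 to -1.07), the 1 member of 3 at least 2-fold lower where 1.48% of genes were. Thinning to 1000 UMIs per cell, from median depths of 3489 in control and 2660 in B6.SLE123, left fewer UMIs. The ratio was then -2.14. The separate gates were too small for a ratio, at 181 CPM in 120 cDC1 of B6.SLE123 and 483 CPM in 46 of control, and at 101 CPM in 32 cDC2 of B6.SLE123 and 389 CPM in 30 of control. In B6.SLE123 Slamf7 of NK cells (220.3 CPM), plasma cells (183 CPM) and conventional dendritic cells overlapped in their hashtag ranges.

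The order of classes for Cd84 differed between libraries. In control, neutrophils (163 CPM), NK cells (136 CPM) and classical monocytes (134 CPM) came first with overlapping hashtag ranges, above B cells (99.8 CPM). In B6.SLE123, NK cells (135 CPM) stood apart from B cells (85.0 CPM), which overlapped with classical monocytes and these with neutrophils. Among classes of at least 50 cells, Slamf9 was highest in nonclassical monocytes of control (31.8 CPM) and Ang II (25.5 CPM) and in C1q-expressing cells of B6.SLE123 (127 CPM), in each case with a hashtag range that overlapped the next class. The B6.SLE123 value rested on C0303, at 157 CPM from 47 UMIs, and was 39.1 CPM from 4 UMIs in 80 cells without it.

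Slamf8, a myeloid member that lacks the adaptor-binding tail of its relatives, was found in dendritic cells and classical monocytes. In conventional dendritic cells it was 72.7 CPM in control (46.7 to 132 in 3 populations), 152 CPM in Ang II (118 to 133 in 3) and 106 CPM in B6.SLE123 (21.1 to 249, median 95.3). The Ang II log2 ratio of 1.07 (0.35 to 1.83) rested on 59 and 23 UMIs in a class where 1.64% of genes were at least 2-fold higher, and the populations overlapped. It was 0.42 when the RNA limits were read as UMIs, which leaves out many of the Ang II cells (median depth 5395 UMIs). Cd48 in conventional dendritic cells was 205, 178 and 149 CPM in control, Ang II and B6.SLE123. The log2 ratio of B6.SLE123 to control was -0.47 (-0.96 to 0.03) from 76 and 65 UMIs. It was -1.84 after thinning, which left fewer UMIs.

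**Figure D4:**
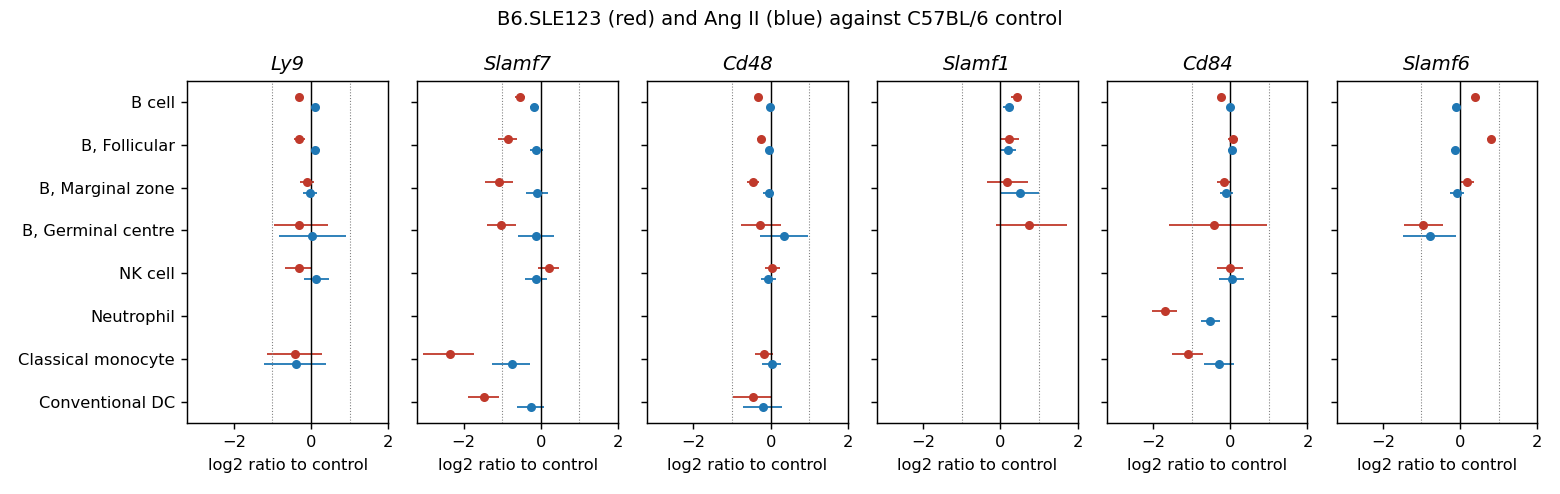
Log2 ratio of CPM in B6.SLE123 (red) and Ang II (blue) to the same control library, by cell class, for the 6 cluster members. Bars are exact 95% counting intervals, dotted lines mark 2-fold, and a point is drawn only with at least 50 UMIs over both libraries. Slamf6 of follicular B cells (0.80) lies to the right, while Cd84 of neutrophils (-1.70) and Slamf7 of classical monocytes (-2.36) lie past 2-fold lower.

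In the C57BL/6 Ang II library the SLAM members of B cells stayed nearer to control, the library that both comparisons share. Of 7 members with enough UMIs 0 differed 2-fold (1.89% of genes did), and 0 had all hashtag populations above (7.67% of genes) or below (4.82% of genes) those of control. The log2 ratios were 0.22 (0.07 to 0.36) for Slamf1, 0.10 (0.02 to 0.17) for Ly9, -0.01 (-0.08 to 0.07) for Cd84 and -0.03 (-0.08 to 0.03) for Cd48. Slamf6 was at -0.11 (-0.18 to -0.05) and Slamf7 at -0.17 (-0.28 to -0.06). The median of the 7 members was -0.03 and that of all genes 0.05. Within the subsets, Slamf1 of marginal zone cells stood at 15.7 CPM in Ang II and 11.1 CPM in control, a log2 ratio of 0.50 (0.02 to 0.99) with overlapping hashtag ranges, and of 0.03 against control cells with a Y-linked UMI. Slamf6 of germinal centre cells gave -0.78 (-1.48 to -0.10) from 34 and 43 UMIs, and -2.55 with the RNA limits read as UMIs. That reading leaves out many of these cells, whose median depths were 6265 UMIs in Ang II and 5602.5 in control.

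Outside B cells, Slamf7 in Ang II classical monocytes gave a log2 ratio of -0.76 (-1.26 to -0.27) from 52 and 116 UMIs, and 0 of 5 members were past 2-fold, against 1.68% of genes. Thinning to 1000 UMIs per cell, from median depths of 7090 in Ang II and 4495.5 in control, left far fewer UMIs. The Slamf7 ratio was then -2.08. Cd84 in Ang II neutrophils gave -0.52 (-0.77 to -0.27) from 364 and 221 UMIs (3.93% of genes past 2-fold). Its direction did not hold, since the Cd84 ratio was 0.28 with control cells limited to those with a Y-linked UMI, 0.03 with the RNA limits read as UMIs and 0.05 without cells holding Camp or Ngp.

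The adaptors and partners of the receptors were read from a list of 15 genes, including SAP, EAT-2 and the kinases and phosphatases that act below them. In B cells 12 had enough UMIs in the comparison of B6.SLE123 with control, of which 1 was 2-fold higher and 0 were 2-fold lower, against 7.32% of all genes past 2-fold (median 0.09, all genes -0.04). That gene was Sh2d1b1, encoding the adaptor EAT-2, at 1.90 CPM in B6.SLE123 and 0.639 CPM in control from 61 and 18 UMIs (log2 ratio 1.57, 0.79 to 2.42). In NK cells, where EAT-2 is best known, Sh2d1b1 was 72.2 CPM against 28.9 CPM (log2 ratio 1.32, 0.72 to 1.96), the 1 gene of 14 past 2-fold, against 2.14% of all genes. In neutrophils 1 of 8 was past 2-fold, against 11.2% of all genes. It was Dok1, an inhibitory adaptor, at 19.0 and 8.87 CPM (log2 ratio 1.10, 0.15 to 2.15). In Ang II B cells 0 of 11 were past 2-fold, against 1.89% of all genes (median 0.24, all genes 0.05).

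The genes on either side of the members were read from a list of 26. In B cells of B6.SLE123 against control 21 had enough UMIs, with a median log2 ratio of -0.02, and 2 were past 2-fold, against 7.32% of all genes. Vangl2, a planar polarity gene, was lower at 1.37 against 6.07 CPM (log2 ratio -2.15, -2.66 to -1.66). Pea15a, which encodes a death-effector-domain protein, was higher at 15.8 against 7.88 CPM (log2 ratio 1.01, 0.78 to 1.24). In follicular cells Fcer1g, the shared signalling chain of Fc receptors, was 37.9 against 16.8 CPM (log2 ratio 1.18, 0.92 to 1.44) and Vangl2 was again lower (-2.50), in a gate where 3.21% of all genes were past 2-fold. The part of the neutrophil markers found in the B cell gate in this Fcer1g value was not tested. In other B6.SLE123 gates, 1 of 18 neighbours was 2-fold higher in marginal zone cells (1.87% of all genes). In germinal centre cells 2 of 15 were 2-fold higher (6.4%). In cells without a subset call 2 of 20 were 2-fold lower (1.37%), as was 1 of 12 in neutrophils (5.25%). In Ang II B cells as a whole 0 of 21 neighbours were past 2-fold, against 1.89% of all genes. Within the Ang II subsets, Fcer1g was lower in marginal zone cells (log2 ratio -1.55, -1.94 to -1.18), as were 0.455% of genes by 2-fold or more, and Dusp23, a phosphatase gene, in cells without a subset call (log2 ratio -1.57, -2.58 to -0.66), as were 0.223%. The subset values were chosen after the list had been read in each gate.

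**Figure D5:**
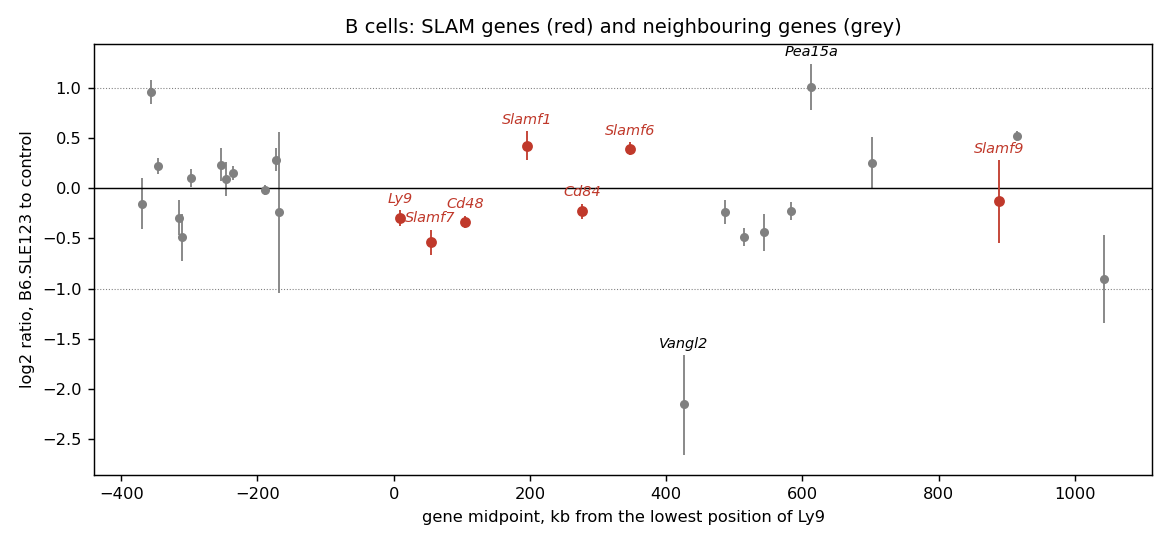
Log2 ratio of CPM in B cells, B6.SLE123 to control, against gene midpoint in kb from the lowest position of Ly9. SLAM genes are red, neighbouring genes of the list grey, bars are exact 95% counting intervals and dotted lines mark 2-fold. Ratios of both signs sit side by side, with Slamf6 at 0.39 and Cd84 at -0.23. The hashtag populations of Cd84 overlapped, and its ratio was -0.0062 with RNA limits read as UMIs.

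The genes most like each member were taken by Pearson correlation of log2(CPM + 1) over 19 points, each a class with at least 50 cells in a library. These points share libraries and depth, so the values describe likeness only. The closest gene to Slamf6 was Rpgrip1 (0.95), followed by Rhoh (0.93) and Xrcc5 (0.91). Cd48 was closest to Polr2f (0.97), Immt (0.96) and Ebpl (0.96), and Ly9 to Zdhhc8 (0.96), Orc5 (0.93) and Bms1 (0.93). Slamf1 was closest to Gm15860 (0.93), Rasal1 (0.91) and Igkv6-20 (0.90), and Cd84 to Kiz (0.92), Ddx58 (0.91) and Ksr1 (0.90). Slamf7 was closest to Atp8b2 (0.91), Anxa6 (0.87) and Slc35a2 (0.86), and Slamf9 to Nr1h3 (0.85), Slc12a2 (0.84) and Ggta1 (0.84). Slamf8 had under 50 UMIs in B cells of each library and was not compared in this way. No SLAM gene was among the 3 genes closest to another.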

How the data were processed

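For each library the authors deposited raw UMI counts of genes and hashtags, and the file headers name Cell Ranger 6.0.0. The submitters' processing notes name build mm10. Whether counting used strand is not given in the sources used here. Cells with more than 200 and fewer than 3500 genes and under 15% mitochondrial UMIs were kept, and barcodes with more than 1 positive hashtag were taken out. Doublets within 1 hashtag cannot be seen. Each cell was given the class with the most detected markers, at least 2 and by a margin of 1. B cells were gated into subsets in the same way. UMIs were summed per class and library, and ratios were formed for members with at least 50 UMIs over both libraries, in classes of at least 50 cells. Ratios have exact conditional 95% intervals and shares have Clopper-Pearson ones, covering counting error only. Hashtag populations under 10 cells are not shown. Positions came from GENCODE on GRCm38, which matched 32158 of 32285 genes. The computation of ratios and intervals was tested on simulated counts.

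All 8 members were named whatever their values, pathway genes where past 2-fold, neighbours where past 2-fold in B cells, and the 3 genes most like each member with at least 50 UMIs in B cells of a library. Members, lists, gates and motifs were chosen with earlier results of these data known. Alternatives were RNA limits read as UMIs, no doublet removal, a stricter gate, centring on the median of all genes, control cells of 1 sex (an Xist UMI, or a UMI of 1 of 4 Y-linked genes), thinning to 1000 UMIs, a minimum of 20 UMIs and leaving out each hashtag population. A gate margin of 2, the joining of both cDC gates, neutrophils without Camp or Ngp and B cells without S100a8, S100a9 or Jchain were added after seeing the data. Python 3.11.15, numpy 2.4.6, scipy 1.17.1, pandas 2.3.3 and matplotlib 3.10.9 were used.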

Additional observations from a re-analysis of the deposited data

Results flagged for a closer look

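In 47 groups of 6 hashtag populations, 4 had a highest or lowest population far from the other populations. Chance flags about 1 in 20 such groups. Cd48 in NK cells of B6.SLE123 was 463 CPM in C0305 (53 UMIs in 78 cells), with the nearest population at 403 CPM. Slamf7 in conventional dendritic cells of B6.SLE123 was 105 CPM in C0305, from 5 UMIs in 15 cells, with the nearest at 159 CPM. Cd84 in control B cells was 93.5 CPM in C0304, with the nearest at 99.6 CPM. Ly9 in control B cells was 75.2 CPM in C0302, with the nearest at 91.7 CPM, and this population alone overlapped the B6.SLE123 range of Ly9.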

How the results depend on the processing

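No paired analysis was possible because each group is 1 library and no result comes from a test. Of 558 log2 ratios under alternatives other than leaving out a population, 491 stayed within the 95% counting interval of the reported ratio. A change of sign was counted as a reversal only where the reported ratio was past 2-fold. This was met by 1, Slamf7 in germinal centre B cells of B6.SLE123, at 0.33 with RNA limits read as UMIs, which leaves out many of these cells. The other 66 left the interval. Of the 558, 58 had another sign than the reported ratio, in 36 of 78 ratios, many of them near 0. Cd84 in Ang II neutrophils, reported at -0.52, was 0.28 with Y-linked control cells, 0.03 with RNA limits read as UMIs and 0.05 without Camp or Ngp. For B cells of B6.SLE123 against control, the RNA limits read as UMIs gave log2 ratios of 0.12 for Slamf1, -0.0062 for Cd84, 0.63 for Slamf6, -0.93 for Slamf7 and -0.76 for Slamf9, and thinning gave 0.065, -0.089, 0.62, -0.81 and -0.82. Control cells with Xist gave -0.26 for Cd48 and -0.68 for Slamf7. B cells without S100a8, S100a9 or Jchain gave -0.12 for Cd84, 0.49 for Slamf6 and -1.04 for Slamf7, which put 1 member past 2-fold. For Ang II, control cells with a Y-linked UMI gave -0.19 for Slamf6 and 0.57 for Slamf9. Leaving out 1 hashtag population moved 5 of 936 log2 ratios out of that interval and gave 47 another sign. In B cells Slamf1 ran from 0.15 (without C0303) to 0.53, and the others were Slamf1 (-0.14) and Slamf9 (-2.41) in follicular cells and Cd84 in neutrophils (-1.24), each without C0303, and Slamf7 in Ang II cDC (-0.62 without C0304). The causes were not tested.

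Members past 2-fold in B6.SLE123 numbered 1 in NK cells with a minimum of 20 UMIs and 1 without doublet removal (0 otherwise). In neutrophils they numbered 2 with a minimum of 20 UMIs, 0 against Xist cells and 0 without Camp or Ngp (1 otherwise). In classical monocytes they numbered 0 with the RNA limits read as UMIs or with thinning, and 1 without doublet removal or against Xist cells (2 otherwise). The counts of 0 in classical monocytes came from members under the minimum of 50 UMIs, since the ratios of Cd84 (-1.29 and -1.95) and Slamf7 (-2.13 and -1.90) stayed past 2-fold. The percent of all genes past 2-fold also moved. For B6.SLE123 it was 4.47 in B cells with RNA limits read as UMIs and 4.57 with thinning. A minimum of 20 UMIs gave 5.43 in NK cells, 9.13 in classical and 8.26 in nonclassical monocytes, and Xist cells gave 5.57 in NK cells and 9.67 in nonclassical monocytes. In neutrophils it was 7.48 with RNA limits read as UMIs, 18.9 with thinning and 4.37 without Camp or Ngp, and in classical monocytes 3.24 with thinning. For Ang II, a minimum of 20 UMIs gave 3.78 in B cells, 4.08 in NK cells, 7.69 in neutrophils, 4.68 in classical and 6.82 in nonclassical monocytes, and Y-linked cells gave 3.82, 8.66, 20.1, 4.36 and 4.31 in the same order. RNA limits read as UMIs gave 2.12 in neutrophils and 13.2 in classical monocytes, thinning 0.987 in B cells and 2.40 in neutrophils, and neutrophils without Camp or Ngp 2.53. Depth limited classes under 50 cells and members under 50 UMIs, for which no ratio was given.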

Other observations

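Classes with under 50 cells in a library entered no ratio, and their SLAM levels are given as values. Slamf9 was at its highest in plasmacytoid dendritic cells, at 181 CPM in 39 control cells, 110 CPM in 25 Ang II cells and 166 CPM in 46 B6.SLE123 cells. It also reached 127 CPM (51 UMIs) in 216 C1q-expressing cells of B6.SLE123 (39.1 CPM, 4 UMIs in 80 cells, without C0303). It had 0 UMIs in the 33 control and 49 Ang II C1q-expressing cells, which allows up to 76.3 and 49.8 CPM. In 32 cDC2 of B6.SLE123 Slamf9 was 77.6 CPM. The joined conventional dendritic cells of that library held 11 Slamf9 UMIs, 7 of them in C0303. Without C0303 they stood at 12.0 CPM (4 UMIs in 107 cells). Slamf7 in plasma cells, which carry it as a surface marker, was 276 CPM in 19 control cells, 303 CPM in 32 Ang II cells and 183 CPM (105 to 231 over hashtag populations) in 283 B6.SLE123 cells. In migratory dendritic cells Slamf7 was 608 CPM in 26 control cells, 303 CPM in 22 Ang II cells and 367 CPM in 48 B6.SLE123 cells. Atypical B cells of B6.SLE123 (222 cells) held 50.2 CPM of Slamf1 and 19.8 CPM of Slamf7. Without C0303, which left 127 cells, these values were 39.2 CPM (18 UMIs) and 19.6 CPM (9 UMIs).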
